A study of Mus musculus with 6 samples.

Results

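The TGF-beta ligands *Tgfb1*, *Tgfb2* and *Tgfb3*, their receptors *Tgfbr1*, *Tgfbr2* and *Tgfbr3*, and the signal transducers *Smad2*, *Smad3*, *Smad4* and *Smad7* were followed across RNA-seq libraries of the mouse molar epithelium. These 10 genes were chosen by name from the 55487 genes of the deposited table. Each library was made from dental epithelium pooled from several first mandibular molars at postnatal day 2.5 (PN2.5), when the root starts to form. The control group (n = 3) carried both floxed alleles of *Wnt10a* and no Cre, with the genotype Wnt10aflox/flox. The conditional knockout group (cKO, n = 3) carried the same floxed alleles with the K14-Cre transgene, genotype K14-Cre;Wnt10aflox/flox, in which the keratin 14 promoter drives Cre in epithelial cells. Cre under this promoter acts in keratin 14 expressing epithelium throughout the body, and recombination was not measured cell by cell.

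TGF-beta is secreted in a latent complex, held by its own propeptide and by latent TGF-beta binding proteins in the matrix, and must be released before it can signal. The free ligand binds the type II receptor TGFBR2, which recruits and phosphorylates the type I receptor TGFBR1, while the type III receptor TGFBR3 (betaglycan) presents ligand, TGF-beta2 above all. TGFBR1 phosphorylates SMAD2 and SMAD3, which join SMAD4 and enter the nucleus, and SMAD7 is induced in turn and blocks the receptor. In developing teeth the pathway acts in both the epithelium and the underlying mesenchyme, and Smad4 in the dental epithelium is known to be needed for root formation.

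The values were TPM, a scale of transcript abundance on which each gene is divided by its length and each library is scaled to a near-constant sum, so levels can be compared between genes. TPM keep no record of sequencing depth, so the depth of the libraries is unknown and no counting error could be given. *Wnt10a*, the targeted Wnt ligand gene, had 56.0, 51.2 and 57.9 TPM in control replicates 1 to 3 and 22.7, 21.8 and 32.2 TPM in cKO replicates 1 to 3. All cKO libraries were below all control libraries, at 46.5% of the control mean (log2 fold change -1.10, SE 0.19, adjusted p of 0.747 in limma; exact permutation p = 0.1, the smallest that 3 against 3 libraries allow). Among the 13719 genes that averaged 1 TPM or more, 552 met the criteria used here (unadjusted p below 0.05 in limma and mean TPM more than 20% apart), which is 4.02%, with 213 higher and 339 lower in cKO. A share of 0.0146% of those genes (2 genes) had an adjusted p below 0.05. The libraries also differed in composition: *Amelx*, the main enamel matrix gene, took 16.5 to 20.6% of the TPM in control and 8.65 to 18.1% in cKO. Ribosomal RNA genes, nuclear and mitochondrial together, took 0.186 to 0.383% in control and 0.902 to 1.73% in cKO. The mitochondrial protein genes took 2.82% in control replicate 3 and 3.38% in cKO replicate 3, against 5.99 to 7.42% in the other libraries.

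The 10 genes were all expressed, at mean levels from 10.6 TPM (*Tgfbr3*) to 106 TPM (*Tgfb1*) over the 6 libraries. *Tgfb1* stood above 93.3% of the genes tested and *Tgfbr2* above 88.7%, while *Tgfbr3* stood near the middle at 47.8%. In descending order the mean levels were *Tgfb1* 106, *Tgfbr2* 64.6, *Smad3* 37.4, *Smad4* 34.4, *Tgfbr1* 33.6, *Tgfb2* 32.8, *Smad7* 28.4, *Smad2* 26.9, *Tgfb3* 20.6 and *Tgfbr3* 10.6 TPM. *Tgfb1* exceeded *Tgfbr2*, *Tgfbr2* exceeded *Smad3*, *Smad2* exceeded *Tgfb3* and *Tgfb3* exceeded *Tgfbr3* in all 6 libraries. The other neighbours, from *Smad3* down to *Smad2*, changed places in at least 1 library, so that the middle of the order was not resolved.

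**Figure D1:**
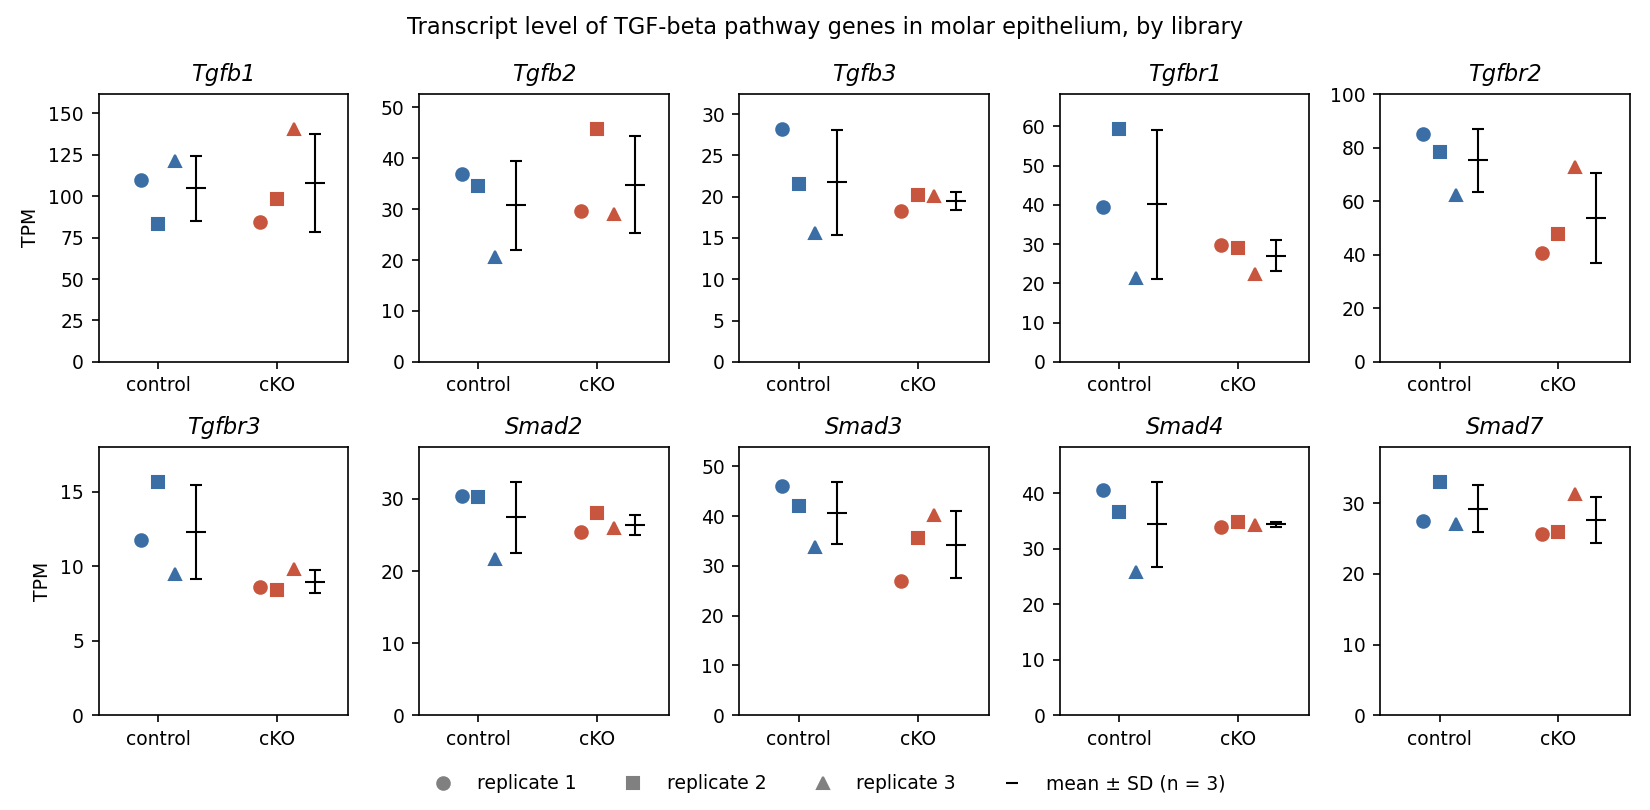
TPM of each gene (y axes, from 0, a scale of its own for each panel) in the 3 control libraries (blue) and 3 cKO libraries (red), with symbols for replicates 1 to 3 and black bars for the mean ± SD. Control and cKO points overlap in all 10 panels, and the control points of *Tgfbr1* spread from 21.5 to 59.5 TPM.

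No difference of a ligand, receptor or Smad transcript between the groups passed a test against the spread between libraries. By limma, 0 of the 10 genes had an adjusted p below 0.05, 0 had an unadjusted p below 0.05 and 0 met the criteria. With an equal-variance test on the unlogged TPM, also 0 met the criteria. For 0 of 10 genes were the groups free of overlap, where 9.64% of all genes tested had groups that did not overlap. The lowest unadjusted p in limma was 0.0759, for *Tgfbr2*, and the adjusted p was 1.00 for every one of the 10 genes. The log2 fold changes of *Tgfbr2* (-0.51, SE 0.25), *Tgfbr3* (-0.40, SE 0.22), *Tgfbr1* (-0.45, SE 0.35) and *Smad3* (-0.25, SE 0.21) exceeded their SE in size. Those of the other genes did not. A failed test does not show that a gene was unchanged. Of the 10 log2 fold changes 7 were below 0, where 8266 of the 13719 genes tested were below 0. The median was -0.10 for the 10 genes and -0.07 for all genes tested.

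*Tgfb1*, the ligand gene with the highest level, had 110, 82.9 and 121 TPM in control replicates 1 to 3 and 84.7, 98.3 and 141 TPM in cKO replicates 1 to 3. The lowest library was a control and the highest a cKO, with the others interleaved. The means were 105 ± 19.8 TPM in control and 108 ± 29.3 TPM in cKO (SD, n = 3), with a log2 fold change of 0.03 (SE 0.24; exact permutation p = 0.9). The 95% interval of the fold ran from 0.692 to 1.502, so changes within that range were not excluded. *Tgfb1* (ENSMUSG00000002603) lies on chromosome 7, at chr7:25687002-25705077 on the plus strand of GRCm38, with 7 exons in its longest coding transcript.

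*Tgfb2*, whose product binds TGFBR2 weakly unless betaglycan is present, had 36.9, 34.6 and 20.6 TPM in the control replicates and 29.5, 45.8 and 29.1 TPM in the cKO replicates. Control replicate 3 was the lowest library and cKO replicate 2 the highest, and the groups overlapped. The means were 30.7 ± 8.80 and 34.8 ± 9.53 TPM, and the log2 fold change was 0.19 (SE 0.28; exact permutation p = 0.6). The gene (ENSMUSG00000039239) spans chr1:186622792-186705989 on the minus strand, with 7 exons in its longest coding transcript.

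*Tgfb3*, the ligand gene with the lowest level, had 28.3, 21.5 and 15.6 TPM in the control replicates and 18.3, 20.2 and 20.1 TPM in the cKO replicates. All cKO values lay inside the control range. The means were 21.8 ± 6.35 and 19.5 ± 1.09 TPM, with a log2 fold change of -0.11 (SE 0.23; exact permutation p = 0.7). *Tgfb3* (ENSMUSG00000021253; chr12:86056745-86079041, minus strand, 7 exons) shares 5149 bases with *Ttll5* on the opposite strand, counted over whole gene spans with introns. The sources used here do not say whether reads were counted by strand, so some reads there may have been assigned to the wrong gene of the 2. *Ttll5* reached at most 10.4 TPM. Within each library *Tgfb1* was above *Tgfb2* and *Tgfb2* above *Tgfb3*, in 6 of 6 libraries, and the ratio of *Tgfb1* to *Tgfb2* ran from 2.15 to 5.89.

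The 3 receptor genes had the most negative log2 fold changes of the 10 genes, and none of them met the criteria. *Tgfbr2*, the type II receptor that binds ligand first, had 85.3, 78.4 and 62.2 TPM in the control replicates and 40.9, 47.7 and 72.9 TPM in the cKO replicates. cKO replicates 1 and 2 were below all controls, and cKO replicate 3 was above control replicate 3. The means were 75.3 ± 11.8 TPM in control and 53.8 ± 16.9 TPM in cKO (SD, n = 3), or 71.4% of control. The log2 fold change was -0.51 (SE 0.25, 95% interval -1.09 to 0.07), with an unadjusted p of 0.0759 and an adjusted p of 1.00 from limma, and an exact permutation p = 0.2.

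*Tgfbr1*, the type I receptor kinase that phosphorylates SMAD2 and SMAD3, had 39.6, 59.5 and 21.5 TPM in the control replicates and 29.7, 28.9 and 22.5 TPM in the cKO replicates. The controls differed 2.77-fold among themselves and included both the highest and the lowest library, while the cKO libraries were close together. The means were 40.2 ± 19.0 and 27.1 ± 3.98 TPM, or 67.4% of control. The log2 fold change was -0.45 (SE 0.35, 95% interval -1.28 to 0.38; exact permutation p = 0.4).

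*Tgfbr3*, the gene of betaglycan, had 11.8, 15.7 and 9.48 TPM in the control replicates and 8.58, 8.44 and 9.84 TPM in the cKO replicates. Only cKO replicate 3 was above the lowest control. The means were 12.3 ± 3.14 and 8.95 ± 0.771 TPM, or 72.8% of control, with a log2 fold change of -0.40 (SE 0.22, 95% interval -0.92 to 0.13; exact permutation p = 0.2). The gene (ENSMUSG00000029287) spans chr5:107106570-107289629 on the minus strand, with 17 exons in its longest coding transcript.

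Summed over the 3 receptors, the libraries held 137, 154 and 93.2 TPM in the controls and 79.2, 85.0 and 105 TPM in the cKO libraries. The means were 128 ± 31.2 and 89.8 ± 13.6 TPM, or 70.3% of control, and the groups overlapped because cKO replicate 3 exceeded control replicate 3 (exact permutation p = 0.2). All 6 endothelial markers (*Pecam1*, *Cdh5*, *Kdr*, *Tek*, *Tie1* and *Emcn*) also had log2 fold changes below 0, where 60.3% of all genes tested did. Their median was -0.55, with *Cdh5* at -0.77 and *Emcn* at -0.10. Of these 6, *Cdh5*, the vascular cadherin gene, and *Tek*, the angiopoietin receptor gene, met the criteria, at unadjusted p of 0.0288 and 0.0458 and adjusted p of 1.00 in limma, where 4.02% of all genes met them. After the correction for length and GC content described further on, 0 of the 6 met the criteria and their median was -0.35. The summed endothelial level was 69.3 to 110 TPM in control and 53.8 to 79.4 TPM in cKO, with *Pecam1* the highest of the list and no marker at 0 in every library. The part of vessel cells in the receptor values was not tested. In bulk tissue, fewer cells of a type and less RNA per cell cannot be told apart.

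The sequences just upstream of the signalling receptors *Tgfbr2* and *Tgfbr1* are shown, the genes with the most negative log2 fold changes of the 10. Neither difference passed a test, and a link to *Wnt10a* was not tested. The windows were taken from RefSeq for GRCm38.p6 and run 5′ to 3′ for 250 bases up to the annotated start (for *Tgfbr1*, the one of 2 listed starts that is the start of the gene). *Tgfbr1* (ENSMUSG00000007613; chr4:47353222-47414931, plus strand, 9 exons) was read at chr4:47352972-47353221. *Tgfbr2* (ENSMUSG00000032440; chr9:116084293-116175360, minus strand, 8 exons) was read at chr9:116175364-116175613. Capitals mark matches, on either strand, to CTTTGA (the core of the TCF/LEF site through which beta-catenin acts), CAGAC (the Smad box) or GGGCGG (the GC box bound by Sp factors), and the motifs did not overlap one another.
Tgfbr1: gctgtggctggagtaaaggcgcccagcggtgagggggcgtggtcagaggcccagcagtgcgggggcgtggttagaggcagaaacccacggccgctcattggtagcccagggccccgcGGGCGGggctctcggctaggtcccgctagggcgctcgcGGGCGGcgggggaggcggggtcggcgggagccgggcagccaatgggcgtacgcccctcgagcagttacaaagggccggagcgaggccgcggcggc
Tgfbr2: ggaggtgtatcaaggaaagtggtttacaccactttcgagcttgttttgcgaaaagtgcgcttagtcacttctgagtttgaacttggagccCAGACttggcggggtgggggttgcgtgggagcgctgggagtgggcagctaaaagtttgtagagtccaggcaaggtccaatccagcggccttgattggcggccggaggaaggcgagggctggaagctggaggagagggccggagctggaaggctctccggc
The *Tgfbr1* window held 2 GC box matches, 0 of CTTTGA and 0 of the Smad box, and was 74.8% G and C. The *Tgfbr2* window held 1 Smad box match and 0 of the other motifs, and was 58.4% G and C. Among 32851 RefSeq promoter windows of 250 bases, 13.8% held CTTTGA, 42.2% the Smad box and 32.7% the GC box. These matches describe letters in a short window, and binding was not measured.

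Receptor levels kept one order throughout. *Tgfbr2* was above *Tgfbr1* in 6 of 6 libraries, by a ratio of 1.32 to 3.24, and *Tgfbr1* was above *Tgfbr3* in 6 of 6. *Tgfbr2* exceeded *Tgfbr3* by a ratio of 4.76 to 7.40. The share of *Tgfbr2* in the receptor total was 60.1% ± 8.12 in control and 59.0% ± 9.19 in cKO (exact permutation p = 1.0). *Tgfbr1* made up 30.2% ± 7.92 and 31.0% ± 8.51, and *Tgfbr3* 9.66% ± 0.915 and 10.04% ± 0.747. The mean shares of the receptor transcripts were close in both groups, with an SD of up to 9.19 percentage points. The ligand mix was also alike in its means: *Tgfb1* made up 66.5% ± 9.28 of the ligand total in control and 65.9% ± 7.34 in cKO (exact permutation p = 1.0), *Tgfb2* 19.7% ± 6.03 and 21.8% ± 6.30, and *Tgfb3* 13.8% ± 3.45 and 12.2% ± 1.597. The summed ligand level was 157 ± 17.95 TPM in control and 162 ± 28.8 TPM in cKO (exact permutation p = 0.8).

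*Smad3*, one of the receptor-regulated Smads, had 46.1, 42.0 and 33.9 TPM in the control replicates and 27.0, 35.5 and 40.2 TPM in the cKO replicates. The cKO values spanned from below all controls to just under the second highest control. The means were 40.6 ± 6.23 and 34.2 ± 6.70 TPM, with a log2 fold change of -0.25 (SE 0.21; exact permutation p = 0.3). *Smad2*, the other receptor-regulated Smad of the pathway, had 30.4, 30.2 and 21.7 TPM in the controls and 25.4, 28.0 and 25.9 TPM in the cKO libraries. All cKO values of *Smad2* lay inside the control range. Its means were 27.4 ± 4.95 and 26.4 ± 1.39 TPM, with a log2 fold change of -0.04 (SE 0.19; exact permutation p = 0.8).

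*Smad4*, the shared partner of the receptor-regulated Smads, had 40.6, 36.7 and 25.8 TPM in the controls and 33.9, 34.8 and 34.3 TPM in the cKO libraries. The mean was 34.4 TPM in each group, with an SD of 7.69 in control and 0.455 in cKO, and the log2 fold change was 0.02 (SE 0.20; exact permutation p = 1.0). *Smad7*, the inhibitory Smad induced by the pathway itself, had 27.5, 33.1 and 27.1 TPM in the controls and 25.6, 25.9 and 31.4 TPM in the cKO libraries. The groups overlapped, with means of 29.2 ± 3.33 and 27.6 ± 3.24 TPM and a log2 fold change of -0.08 (SE 0.17; exact permutation p = 0.5). Neither the partner Smad nor the feedback inhibitor passed the test, and the 95% interval for *Smad7* still allowed values from -0.48 to 0.32 on the log2 scale.

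In every library *Smad3* was above *Smad2*, by a ratio of 1.07 to 1.56, and *Smad4* was above *Smad2*. The ratio of *Smad2* to *Smad3* was 0.658, 0.720 and 0.642 in the control replicates and 0.939, 0.788 and 0.645 in the cKO replicates. cKO replicates 1 and 2 had the highest ratios and cKO replicate 3 fell among the controls, with means of 0.674 ± 0.0413 and 0.791 ± 0.147 (exact permutation p = 0.3). *Smad4* stood at 0.501 ± 0.0343 of the sum of *Smad2* and *Smad3* in control and 0.572 ± 0.0675 in cKO (exact permutation p = 0.2). *Smad7* stood at 0.435 ± 0.0675 and 0.457 ± 0.0433 of the same sum. The summed level of the 4 Smads was 132 ± 20.1 TPM in control and 123 ± 10.1 TPM in cKO (exact permutation p = 0.6). Of the 12 shares, ratios and sums compared within libraries, all had an exact permutation p adjusted over the 12 of 1.0. *Smad3* (ENSMUSG00000032402) lies at chr9:63646767-63757994 on the minus strand, with 9 exons.

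Of the 4 Smads described, 3 lie on chromosome 18. *Smad2* (ENSMUSG00000024563) spans chr18:76241580-76310963 on the plus strand with 11 exons. *Smad4* (ENSMUSG00000024515) spans chr18:73639009-73703780 on the minus strand with 12 exons, and *Smad7* (ENSMUSG00000025880) spans chr18:75367529-75395935 on the plus strand with 4 exons.

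**Figure D2:**
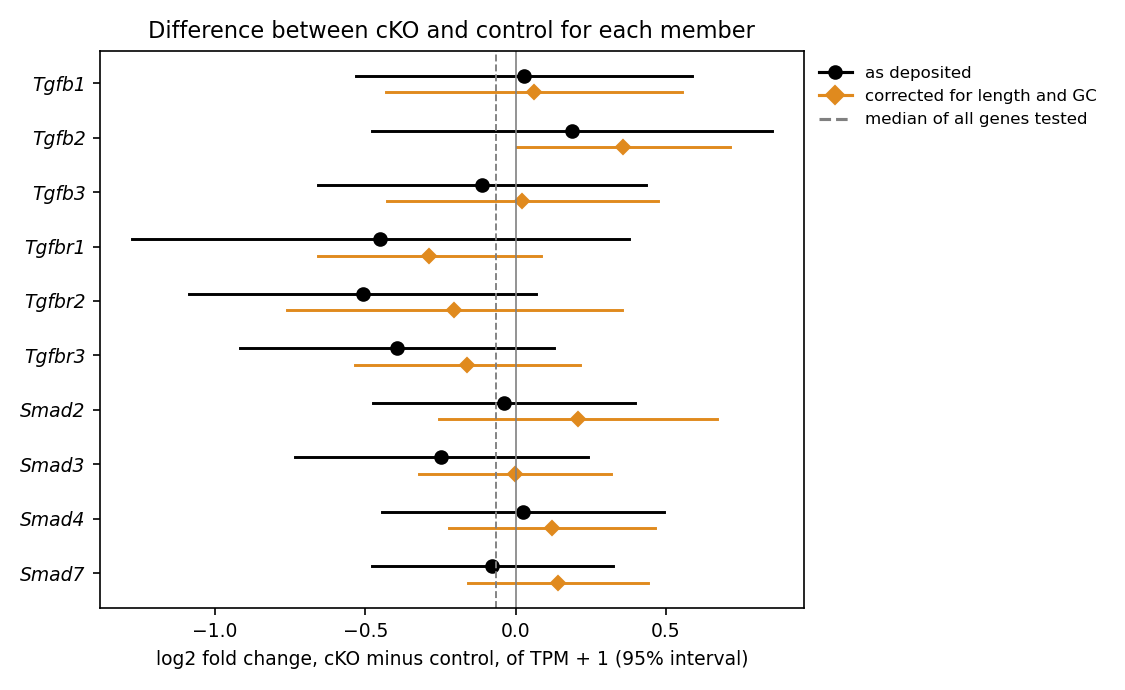
Log2 fold change of TPM + 1, cKO minus control (x axis), for each of the 10 genes with its 95% interval, as deposited (black circles) and with the length and GC correction (orange diamonds); the dashed line is the median of all genes tested, -0.07. All black intervals cross 0, and among the orange ones that of *Tgfb2* lies just above it, at 0.36.

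Fold changes in these libraries ran with transcript length. When the protein-coding genes tested were put in 10 groups of 1218 to 1219 by the length of their longest coding transcript, the median log2 fold change fell from 0.17 in the shortest group to -0.30 in the longest. The receptors have long transcripts, of 5756 bases for *Tgfbr1*, 8092 for *Tgfbr2* and 6087 for *Tgfbr3*. Their length groups had medians of -0.23, -0.30 and -0.23, and the receptors themselves lay below these, at -0.45, -0.51 and -0.40. *Smad2*, at 8089 bases, was in the same group as *Tgfbr2* but had a log2 fold change of -0.04. *Tgfb2*, at 5116 bases, was above its group median of -0.18, and *Tgfb1*, at 2175 bases, was next to its group median of 0.02.

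When each library was corrected for transcript length and GC content, 634 of 13707 genes met the criteria, which is 4.63%, and 1 of the 10 genes did. This was *Tgfb2*, with a corrected log2 fold change of 0.36 (95% interval from 0.00 to 0.71, unadjusted p of 0.0480, adjusted p of 1.00 in limma). The receptors moved nearer to 0, to -0.29 for *Tgfbr1*, -0.20 for *Tgfbr2* and -0.16 for *Tgfbr3*, with unadjusted p of 0.110, 0.416 and 0.344 in limma. *Smad3* went to -0.00, and *Tgfb3*, *Smad2* and *Smad7* moved from below 0 to 0.02, 0.21 and 0.14. After the correction 4 of the 10 genes were below 0, with a median of 0.04 for the 10 genes and 0.00 for all genes tested.

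**Figure D3:**
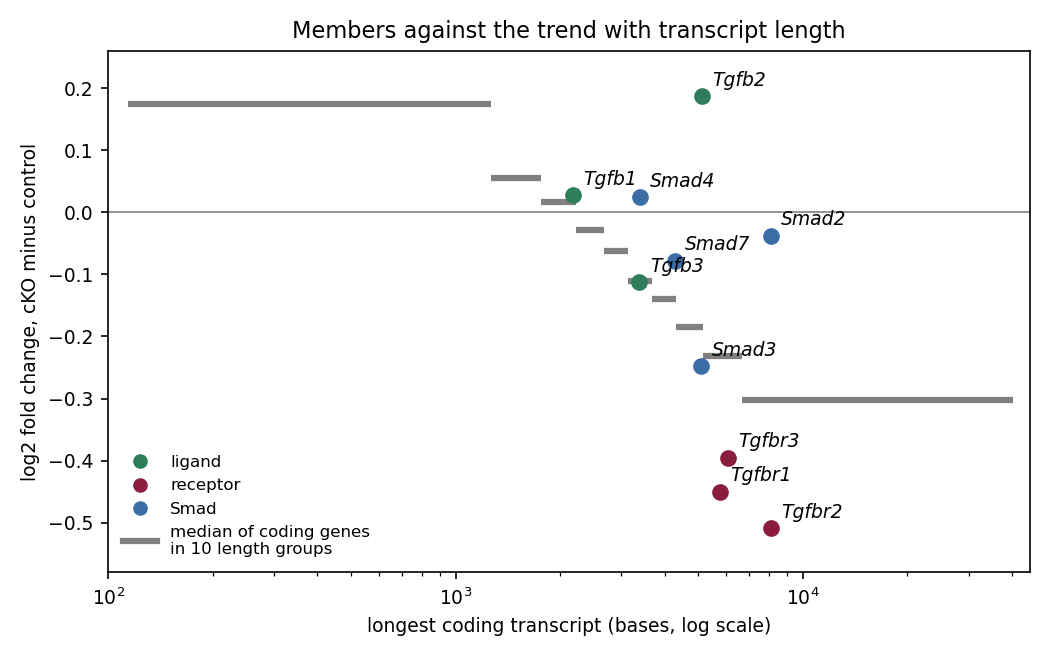
Log2 fold change, cKO minus control (y axis), of the 10 genes against the length of their longest coding transcript in bases (x axis, log scale), with grey bars for the median of all coding genes in 10 length groups. The grey bars descend from 0.17 to -0.30, and the 3 receptors (dark red) lie below them at -0.40 to -0.51.

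Single libraries weighed on the values. Control replicate 3 had the lowest value of all 6 libraries for 5 of the 10 genes (*Tgfb2*, *Tgfb3*, *Tgfbr1*, *Smad2* and *Smad4*). The share of all genes lowest in that library was not counted, so this need not be particular to the 10 genes. Without control replicate 3, the 3 receptors met the criteria, with log2 fold changes of -0.83 for *Tgfbr1*, -0.64 for *Tgfbr2* and -0.55 for *Tgfbr3* and unadjusted p of 0.0124, 0.0489 and 0.0429 in limma, where 8.33% of all genes met them and 6.73% met them with a lower level in cKO. The median of all genes also moved, to -0.18. That fit kept cKO replicate 3. Mitochondrial protein genes took 3.38% of the TPM in cKO replicate 3 and 2.82% in control replicate 3, below all other libraries. Without cKO replicate 3, *Tgfbr2* alone of the 10 genes met the criteria, at -0.75 (unadjusted p of 0.00997 in limma), where 6.72% of all genes met them and 4.31% met them with a lower level in cKO. The receptors had negative values in all 16 alternative settings tried, from -0.83 to -0.12 for *Tgfbr1*, -0.75 to -0.20 for *Tgfbr2* and -0.55 to -0.16 for *Tgfbr3*. *Smad3* was likewise negative in 16 of 16, down to -0.00 at the least. *Tgfb1*, *Tgfb2*, *Tgfb3*, *Smad2*, *Smad4* and *Smad7* changed sign between settings. The settings refit the same libraries, so they are not independent of one another. Adding the replicate block, or dropping the filter or the variance trend, leaves a fold change as it was by construction. The lowest adjusted p that any setting gave one of the 10 genes, by limma or by the equal-variance test, was 0.5445.

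**Figure D4:**
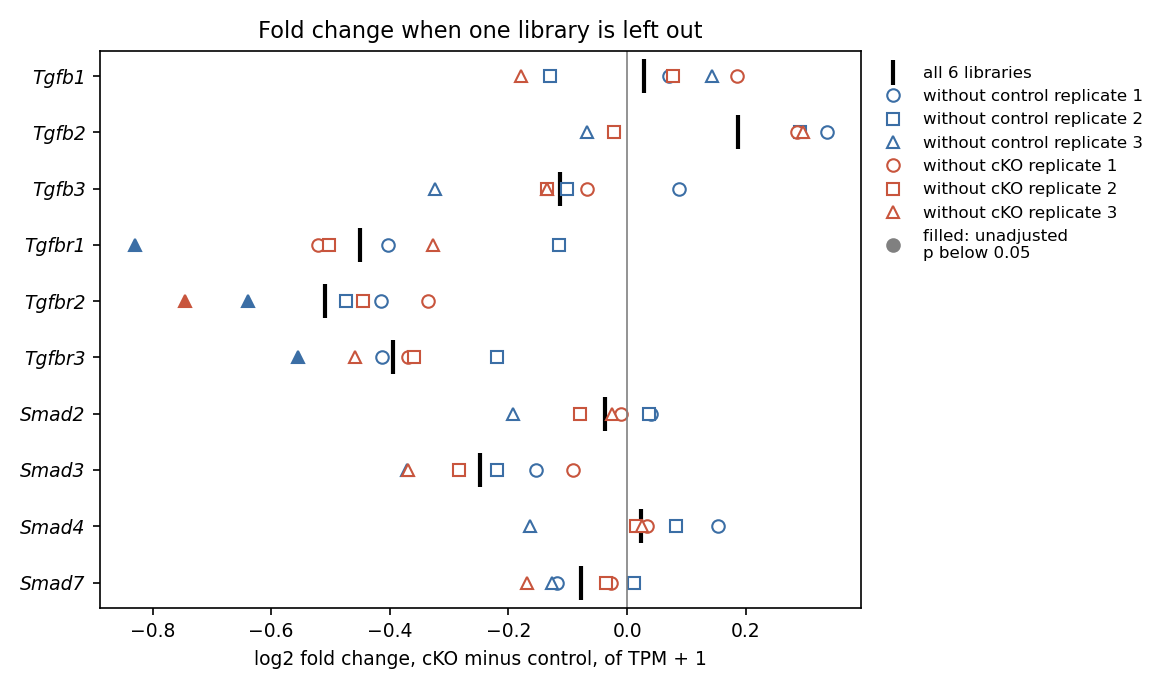
Log2 fold change of TPM + 1, cKO minus control (x axis), for each of the 10 genes with all 6 libraries (black bar) and with 1 library left out (open symbols, filled where the unadjusted p is below 0.05). The receptor symbols all lie below 0, from -0.83 to -0.12, and those of the other genes except *Smad3* fall on both sides.

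Around the 10 genes, 79 further genes of the pathway were listed by role in 7 lists, of which 71 were tested. In these, 3 genes (4.23%) met the criteria, close to the 4.02% of all genes. Of the 3 genes, 1 was lower and 2 were higher in cKO, and 0 had an adjusted p below 0.05 in limma. In total 48 of the 71 had log2 fold changes below 0, where 60.3% of all genes tested did.

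The list of latency and activation (latent TGF-beta binding proteins, integrins, fibrillins and others) had 1 of 16 tested genes past the criteria, beside 4.02% of all genes. The gene was lower in cKO. This was *Ltbp2*, a latent TGF-beta binding protein family member of elastic fibres that does not itself bind latent TGF-beta. It had 13.5, 14.7 and 10.8 TPM in the controls and 7.25, 7.36 and 9.12 TPM in the cKO libraries. All cKO libraries were below all controls, with means of 13 ± 2.04 and 7.91 ± 1.05 TPM. The groups did not overlap, in either direction, for 9.64% of all genes tested. The log2 fold change was -0.65 (SE 0.20), with an unadjusted p of 0.0139 and an adjusted p of 1.00 in limma, and -0.32 after the length and GC correction. *Ltbp2* met the criteria in 15 of 16 alternative settings and missed them without control replicate 1, at -0.62. The list's median was -0.23, and -0.01 after the correction. *Ltbp3*, which binds and stores latent TGF-beta, was the highest of the list, at 203 ± 23.4 TPM in control and 182 ± 35.5 TPM in cKO (log2 fold change -0.17).

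Of the genes that buffer the signal, 0 met the criteria in the values as deposited. Among 6 tested co-receptors and ligand traps the median was -0.07, and the highest, *Dcn*, the gene of the TGF-beta binding proteoglycan decorin, had 152 ± 65.5 TPM in control and 190 ± 66.9 TPM in cKO (log2 fold change 0.35). Among 16 tested Smad regulators, such as ubiquitin ligases and corepressors, the median was -0.16, and 0.03 after the length and GC correction. With that correction 1 of the 16 met the criteria, beside 4.63% of all genes. It was *Nedd4l*, a ubiquitin ligase gene, at 0.47 (unadjusted p of 0.0205 in limma). The highest of these was *Ppm1a*, a phosphatase acting on SMAD2 and SMAD3, at 89.5 ± 12.3 TPM in control and 91.3 ± 7.03 TPM in cKO (log2 fold change 0.04).

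The neighbouring branches also had 0 genes past the criteria. The activin branch uses the same SMAD2 and SMAD3, and 8 of its 12 listed genes were tested, with a median of -0.16. Its highest gene was *Acvr1b*, a type I activin receptor, at 37.6 ± 6.56 TPM in control and 27.3 ± 6.85 TPM in cKO (log2 fold change -0.46, unadjusted p of 0.0807 in limma), and *Nodal* and *Mstn* were listed at 0 in every library. The 3 BMP Smads had a median of 0.02, with *Smad5* the highest at 42.3 ± 11.6 and 32.7 ± 2.07 TPM (log2 fold change -0.33). The TAK1 branch, the kinase route that TGF-beta receptors use beside the Smads, had 5 of 5 genes below 0, where 60.3% of all genes tested were. Its median was -0.26, and -0.06 after the length and GC correction. Its highest gene was *Tab2*, an adaptor of the TAK1 kinase, at 48.5 ± 16.98 and 39.0 ± 8.11 TPM (log2 fold change -0.26).

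Among the 17 tested target genes, 2 met the criteria with a higher level in cKO and 0 with a lower level, beside 4.02% of all genes in either direction. The list's median was 0.04. After the length and GC correction 3 met the criteria, beside 4.63% of all genes, and the median was 0.20. These were *Junb* (0.90) and *Id2* (0.52), higher in cKO, and *Cdkn2b*, a cyclin-dependent kinase inhibitor gene, lower in cKO (-0.42). *Junb*, an AP-1 factor gene and immediate early target, had 34.7, 60.9 and 23.7 TPM in the controls and 68.9, 72.1 and 67.9 TPM in the cKO libraries. All cKO libraries were above all controls, where 9.64% of all genes tested had groups that did not overlap. The means were 39.8 ± 19.1 and 69.6 ± 2.21 TPM, with a log2 fold change of 0.90 (SE 0.32, unadjusted p of 0.0244 and adjusted p of 1.00 in limma). *Junb* met the criteria in 11 of 16 alternative settings, and missed them in the equal-variance test on TPM and when control replicate 1 or 3 or cKO replicate 1 or 2 was left out, at log2 fold changes of 0.85, 0.59, 0.90 and 0.87.

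*Id1*, an inhibitor of basic helix-loop-helix factors best known as a BMP target and also regulated by TGF-beta, had 192, 221 and 147 TPM in the controls and 258, 357 and 218 TPM in the cKO libraries. cKO replicate 3 fell just under the highest control. The means were 187 ± 37.4 and 278 ± 71.5 TPM, with a log2 fold change of 0.56 (SE 0.24, unadjusted p of 0.0477 and adjusted p of 1.00 in limma). *Id1* met the criteria in 7 of 16 alternative settings, and missed them without control replicate 1 or 3 or cKO replicate 1 or 2, at 0.59, 0.40, 0.60 and 0.37. It also missed them after the length and GC correction (0.51), with no filter on low values, with quantile normalization, without the mean-variance trend and in the equal-variance test on TPM. Its relatives *Id2* and *Id3*, named here after their values were seen, had log2 fold changes before the correction of 0.59 and 0.53 with unadjusted p of 0.141 and 0.0701 in limma.

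The remaining targets did not meet the criteria, including *Col1a1*, a collagen gene of mesenchyme and odontoblasts and the highest of the list, at 2251 ± 759 TPM in control and 2309 ± 136 TPM in cKO.

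**Figure D5:**
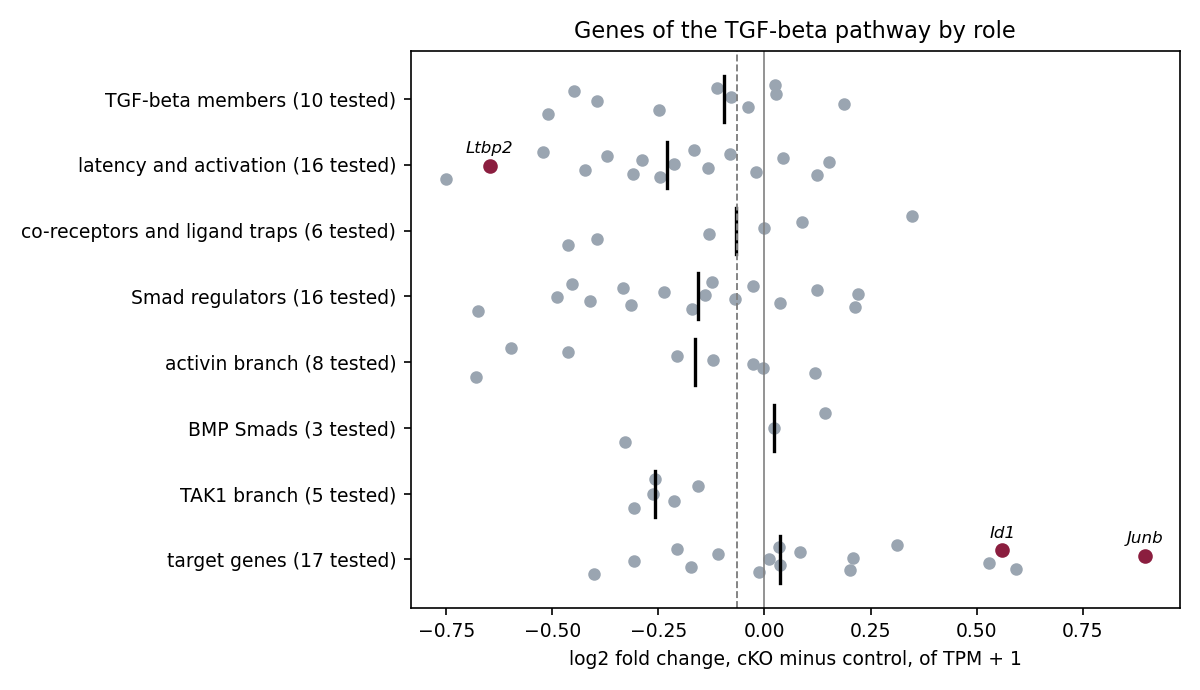
Log2 fold change of TPM + 1, cKO minus control (x axis), of each tested gene of the 10 genes and the 7 lists, with the list median as a black bar, the median of all genes tested as a dashed line, and genes past the criteria in dark red. *Ltbp2* lies at -0.65, *Id1* at 0.56 and *Junb* at 0.90, and the list medians lie between -0.26 and 0.04.

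Markers of the labelled tissue and of other tissues were read in the same libraries. The 9 epithelial markers summed to 204886 to 246288 TPM in control and 101107 to 215130 TPM in cKO, with *Amelx* the highest, and 0 met the criteria. The 10 mesenchymal markers summed to 3161 to 5651 and 3816 to 4193 TPM, with *Col1a1* the highest, and the 4 odontoblast markers to 1626 to 3253 and 2080 to 2386 TPM, with *Sparc* the highest. In both lists 0 genes met the criteria, and mesenchymal transcripts were measured in every library of both groups. The erythroid markers summed to 1325 to 1978 TPM in control and 1161 to 1282 TPM in cKO. All 5 had log2 fold changes below 0, where 60.3% of all genes tested did. *Hbb-bs*, a beta globin gene, was past the criteria at a log2 fold change of -0.43, so that 1 of 5 met them beside 4.02% of all genes. After the length and GC correction 4 of the 5 met the criteria (*Hba-a1*, *Hba-a2*, *Hbb-bs* and *Hbb-bt*, at -0.41, -0.64, -0.57 and -0.51), beside 4.63% of all genes, with a list median of -0.51. The 5 leukocyte markers summed to 17.1 to 26.0 and 16.4 to 24.4 TPM, and the 5 muscle markers to 5.66 to 6.63 and 3.76 to 6.61 TPM. No marker of any list was at 0 in every library. How much of the TPM of the 10 genes came from mesenchymal, vascular or blood cells was not tested.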

How the data were processed

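Total RNA of dental epithelium was made into libraries with a TruSeq kit, and each library pooled several molars, whose number differs between the series' design text and the study's methods. Per the methods, the authors used SeqPrep and Sickle for trimming, HISAT2 for alignment and RSEM for abundance, while the submitters' processing notes list HISAT2 and StringTie. Genome build, annotation and strand setting are not given in the sources used here. The deposited values were taken as TPM, because each library summed to 983952 to 993946, although the methods name FPKM, and TPM hold no depth.

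Of 55487 genes, the 13719 that averaged 1 TPM or more were tested on log2(TPM + 1) with limma (version 3.58.1, R 4.3.3), using a mean-variance trend and Benjamini-Hochberg adjustment over all genes tested. Fold changes on this scale understate those of low genes. A gene was called where its mean TPM differed by more than 20% of control and its unadjusted p was below 0.05, the criteria of the study. Its statistics section names Student's test for the article as a whole, which was run on TPM as an alternative. Single values were compared with the two-sided exact permutation test (scipy 1.17.1), which for 3 against 3 libraries cannot go below 0.1. The labels call the libraries biological replicates. Fits were tested on simulated data. Gene positions and lengths came from GENCODE M21 on GRCm38, where 99.53% of the gene identifiers were found, and upstream windows from RefSeq, where 5 of the 10 genes matched (not matched were *Tgfb3*, *Tgfbr3*, *Smad2*, *Smad4* and *Smad7*).

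Named were all 10 genes, *Wnt10a*, the highest gene of each pathway list and each gene past the criteria. The highest marker of each list was also named, except for the leukocyte and muscle markers. Named beyond this were *Ttll5*, the other endothelial markers, *Nodal* and *Mstn* (listed at 0), *Id2*, *Id3*, and the genes of a list past the criteria only after the length and GC correction. Those named beyond the rule were all chosen after their values were seen. The 10 genes and the lists were chosen with earlier results of these data known. Alternatives were another pseudocount (0.1), filter, scaling, test and variance trend, a correction for transcript length and GC content with natural splines (4 degrees of freedom), a replicate block, and leaving out each library.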

Additional observations from a re-analysis of the deposited data

How the results depend on the processing

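*Wnt10a* kept its direction and an unadjusted p below 0.05 under all 16 alternatives, at log2 fold changes from -1.27 to -0.996. Of the 10 TGF-beta genes, 0 met the criteria with all libraries. When the TPM were rescaled over protein-coding genes only, leaving out *Amelx* and *Ambn*, 1 did (*Tgfbr2*, -0.56, with the median of all genes at -0.12). In that setting 755 of 12625 genes met the criteria, 651 of them lower in cKO. Of the 10 genes, 1 met the criteria after the length and GC correction (*Tgfb2*), beside 4.63% of all genes, and 0 to 3 when a library was left out. Genes past the criteria numbered 552, but 940 with no filter on low values and 195 to 1152 when a library was left out. Genes with an adjusted p below 0.05 numbered 2, but 4 with a pseudocount of 0.1, with quantile normalization and with median-ratio scaling, 1 with no filter, 0 after the rescaling (755 at an unadjusted p below 0.05), 0 with Student's test on TPM (544 at an unadjusted p below 0.05), and 2 to 9 when a library was left out. The share of called genes that were higher was 38.6% with all libraries, 49.9% with quantile normalization, 51.1% with median-ratio scaling, 13.8% after the rescaling and 54.7% after the length and GC correction. With a replicate block, 1315 of 13719 genes passed the criteria and 4 had an adjusted p below 0.05 in limma. With the block and the correction, 1077 of 13707 genes passed the criteria and 1 had an adjusted p below 0.05. Beside these shares, 0 of the 10 genes met the criteria in either fit. The deviations from the group means correlated, between libraries with one number, at -0.08, 0.29 and 0.40 across 13719 genes, and the control and cKO libraries numbered 2, like those numbered 3, were each other's best match, while control replicate 1 and cKO replicate 1 each correlated better with another number. The series' design text speaks of pairs but names no shared litter, batch or day, so the pairing remains uncertain and the fit without the block was kept. The cause of these shifts was not tested. The medians of all genes without control replicate 3 and without cKO replicate 2 were -0.18 and -0.17. TPM give no depth, so no limit of detection could be set.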
